A study of Homo sapiens with 12 samples.

Results

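The comparison described here was that of the 3 DDP libraries with the 3 CON libraries, 6 of the 12 RNA-seq libraries of the study, chosen by their labels. The cells were A549/DDP, a cisplatin-resistant subline of A549, which came from a human lung adenocarcinoma, and DDP stands for cisplatin. Cells of CON stayed in RPMI-1640 medium with 2 g/L glucose and 10% fetal bovine serum through each 24 h cycle as the control group, while cells of DDP stayed in that medium and got cisplatin. The other libraries, TRF and TRF + DDP, came from cells given 6 h of that medium and 18 h of serum-free and glucose-free medium in each 24 h cycle, without and with cisplatin, and they served here to share the estimate of spread and to repeat the drug contrast in another medium. The labels name A549/DDP as the source, while the methods of the study speak of A549 tumor cells where they describe the RNA. The line is propagated in cisplatin to keep its resistance, and whether and when CON cells were taken off the drug is unknown here. The labels state neither the dose nor the hours of exposure, and the study gives both for this line beside its RT-qPCR of the combined treatment. The study calls the samples of each group biological replicates, without saying how the cultures were kept apart, and the p-values measure the spread between these libraries.

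Cisplatin binds DNA and joins neighbouring guanines, mostly within a strand and less often across strands. The lesions stall polymerases, are removed by nucleotide excision and crosslink repair, and switch on the checkpoint kinases that stabilise p53. The p53 protein is a transcription factor that binds paired copies of a short palindromic DNA block and raises genes for cell cycle arrest, repair, cell death and its own control through MDM2. Resistant sublines are derived by long exposure to the drug.

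Values were TPM, a length-scaled transcript abundance, which state a gene's share of its library's transcripts after division by length. TPM is relative to the library total, total read counts were not given, and depth is therefore unknown. Changes are differences of log2(TPM + 1), DDP minus CON, each with its standard error from the limma fit over all 12 libraries, and the pseudocount of 1 understates the change of low genes. A gene was called when its Benjamini-Hochberg adjusted p was under 0.05 and its fold was over 1.5. In bulk RNA, a change in every cell and a change in some of the cells cannot be told apart.

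Markers of a lung epithelial line were mixed. The keratin genes KRT8 and KRT18 were high, at 487 to 820 TPM and 423 to 623 TPM over the 6 libraries. In contrast EPCAM, CDH1 and KRT19, which also define epithelial cells, were at 0.48 TPM or lower in every library. Of the surfactant and airway genes, SFTPA1, SFTPB and SCGB1A1 were at 0.01 TPM or lower. Other alveolar and airway markers were expressed, and 2 of the 10 listed reached the level tested. The 10 summed to 30.4 to 32.9 TPM in CON and 32.1 to 36.6 TPM in DDP. CDKN2A, which is deleted in A549, was at 0 to 0.06 TPM, and the NRF2 target NQO1, known to be high in this line, was at 2285 to 2709 TPM, while AKR1C1 and AKR1B10, also known as high in A549, were at 3.62 to 5.45 TPM and at 7.14 to 14.6 TPM. MTAP and ALDH1A1 were also listed for the known state of A549, and 5 of the 6 genes so listed reached the level tested. Of 12 leukocyte markers only CD68 and ITGAM reached the level tested, and PTPRC, CD3E and CD3D stayed at 0 to 0.01 TPM. The summed leukocyte markers were at 9.69 to 10.9 TPM in CON and 16.02 to 17.8 TPM in DDP, chiefly CD68, a lysosomal protein. Fibroblast and endothelial markers summed to 14.2 to 16.8 TPM in CON and 16.8 to 21.9 TPM in DDP. Correlations of log2(TPM + 1) between libraries were 0.979 to 0.983 within the groups and 0.971 to 0.979 between them, across genes, which are not independent replicates.

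Of 60902 genes and loci listed, 13854 averaged 1 TPM or more across all 12 libraries and were tested. Cisplatin moved few of them far and moved most of those upwards. A total of 279 genes were called, which is 2.01% of those tested, with 257 higher (1.86%) and 22 lower (0.159%) in DDP. Only 33 of the genes with adjusted p under 0.05 rose more than 2-fold and 4 fell more than 2-fold. In all 279 called genes the 3 DDP values lay outside the range of the 3 CON values, an arrangement found in 34.6% of all genes tested (25.7% higher, 8.89% lower). Genes called higher were of low level, with a median CON mean of 4.99 TPM against 12.6 TPM for all genes tested, and 224 of the 279 were protein-coding.

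**Figure D1:**
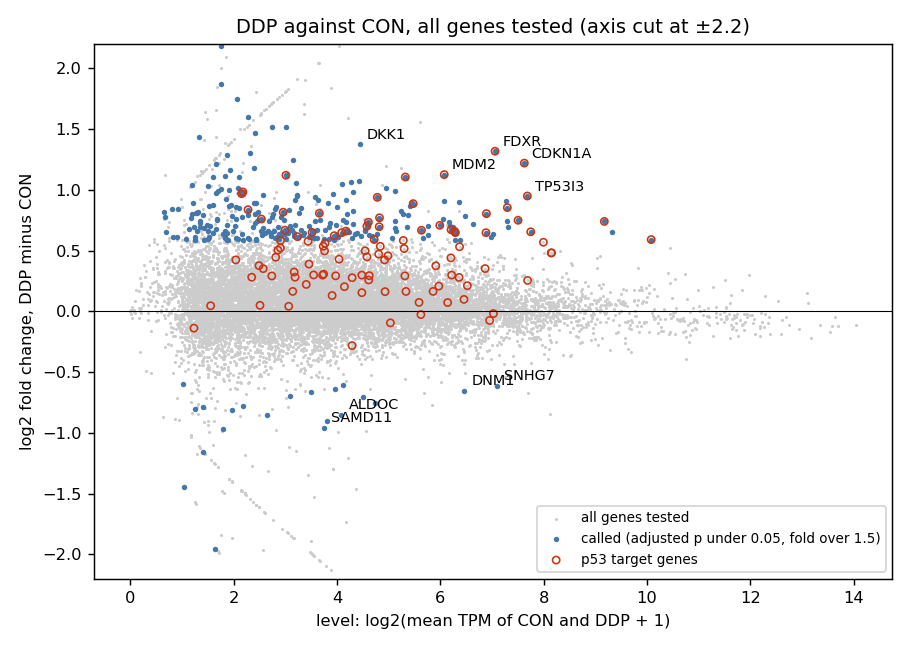
Each point is a gene tested, with its level, log2(mean TPM of the 6 libraries + 1), on the horizontal axis and its log2 fold change, DDP minus CON, on the vertical axis. Blue points are the 279 called genes and open red circles the p53 target genes, most of which lie above 0, and 21 genes lie outside the vertical axis.

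The balance between rises and falls depended on how libraries were scaled. With TPM as deposited the median log2 fold change of all genes was 0.06, and 92.1% of the called genes were higher in DDP. Under quantile normalization the median was -0.01 and 78.6% of the called genes were higher, and under TMM-style scaling, which takes out an average shift of most genes, 82.0% were higher. A set of 180 genes was called in the same direction under all 3 scalings, 1.3% of the genes tested. It held 158 higher (1.14%) and 22 lower (0.159%) genes, so each of the 22 falls was kept.

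The p53 target genes made the largest block of calls, and 103 of the 110 listed were tested. Of these, 37 were called higher and 0 lower, 35.9% against 1.86% of all genes tested and 1.6% of the genes outside the list, and 75 had adjusted p under 0.05, all higher (10.0% of all genes tested were higher by this rule). Their median log2 fold change was 0.48 against 0.06 for all genes, and 0.42 against -0.01 under quantile normalization, where 65 were higher and 1, STEAP3, was lower. The called members of the list numbered 31 under quantile normalization and 25 under TMM-style scaling. Among all genes tested 169 were called higher under each of these scalings. The list holds genes known to be raised by p53 and was drawn up with earlier results of these data known, so its counts describe these libraries.

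Among the arrest genes of the list, 6 of 14 were called higher and 11 had adjusted p under 0.05. CDKN1A, which encodes the cyclin-dependent kinase inhibitor p21 (GENCODE v29, GRCh38 chr6:36676460-36687339), was at 116, 114 and 122 TPM in CON and at 279.7, 268 and 278 TPM in DDP. All 3 DDP libraries were more than 2-fold above every CON library (log2 fold change 1.22 ± 0.04, adjusted p = 1.2e-08). PLK2, a stress-induced polo-like kinase, was at 29.1, 34.4 and 27.04 TPM in CON and 49.2, 65.4 and 55.6 TPM in DDP (0.89 ± 0.11). BTG2, an antiproliferative regulator of messenger RNA decay, went from 17.3, 17.1 and 17.4 TPM to 28.7, 29.7 and 29.96 TPM (0.73 ± 0.06), and the groups did not overlap in either gene. ZMAT3, an RNA-binding protein that is low in these cells (3.303 TPM in CON), rose by 0.76, and GADD45A, which binds PCNA and p21, by 0.67. SFN, the 14-3-3 sigma protein that holds cells before mitosis, was under the fold threshold at 0.57 ± 0.05, from 204 ± 2.55 TPM to 303 ± 16.3 TPM (mean ± SD, n = 3).

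Of the 7 genes that feed back on p53, 2 were called higher and 5 had adjusted p under 0.05, all higher. MDM2, the ubiquitin ligase that degrades p53 (GRCh38 chr12:68808176-68850686), was at 37.2, 41.5 and 45.5 TPM in CON and 91.9, 97.04 and 85.2 TPM in DDP, with no overlap (log2 fold change 1.13 ± 0.12, adjusted p = 1.8e-04). TRIM22, an antiviral ubiquitin ligase, rose from a low level by 0.97. PPM1D, a phosphatase that ends the damage signal, changed by 0.56 ± 0.10 and MDM4, the partner of MDM2, by 0.58 ± 0.16, both under the 1.5-fold line with adjusted p of 0.0044 and 0.035. The call of MDM4 by adjusted p alone was not kept under all 3 scalings or without CON2, CON3, DDP2 or DDP3 (up to 0.12).

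In the cell death role 6 of 16 tested members were called and 13 had adjusted p under 0.05. PMAIP1, which encodes the BH3-only protein NOXA, was at 3.5, 4.4 and 4.33 TPM in CON and 10.1, 11.5 and 8.58 TPM in DDP (1.12 ± 0.14, adjusted p = 2.5e-04). TP53I3, a quinone oxidoreductase linked to oxidative stress in p53-driven death, was at 135, 134 and 148 TPM and 280.2, 267 and 261 TPM (0.95 ± 0.05). FAS, the death receptor, was at 20.8, 18.1 and 20.8 TPM and 34.7, 37.9 and 31.4 TPM (0.77 ± 0.09), and the groups stood apart in these 3 genes. The effector BAX and the BH3-only gene BBC3 (PUMA) moved less. BAX went from 236 ± 12.8 TPM to 330.4 ± 6.12 TPM (0.48 ± 0.05, adjusted p = 1.2e-04) and BBC3 by 0.47 ± 0.06. CASP1, an inflammatory caspase, was called at 0.82 from 4.66 TPM in CON, but its adjusted p was not under 0.05 in all 3 scalings, nor with any 1 of the 6 libraries left out (0.065 to 0.13).

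The repair role, in which FDXR and RPS27L were also listed, held 6 called genes of 9. FDXR, a mitochondrial ferredoxin reductase, showed the largest rise of the whole p53 list, from 74.96, 72.9 and 77.9 TPM in CON to 201, 182 and 185 TPM in DDP (1.32 ± 0.06, adjusted p = 1.1e-07, GRCh38 chr17:74862497-74873031). RRM2B, the p53-induced ribonucleotide reductase subunit, was at 18.1, 18.2 and 17.1 TPM and 34.7, 38.1 and 32.5 TPM (0.94 ± 0.10). DDB2 and XPC, which recognise helix-distorting lesions at the start of nucleotide excision repair, were at 134 and 59.96 TPM in CON and at 227 and 94.5 TPM in DDP, and each rose with no overlap (0.75 ± 0.05 and 0.65 ± 0.05). POLH, the polymerase that copies past cisplatin adducts, rose by 0.65 ± 0.08. RPS27L, a ribosomal protein homologue, was the most abundant called member of the list at 862 ± 64 TPM in CON and 1298 ± 63.8 TPM in DDP (0.59 ± 0.06).

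Metabolic and redox members gave 3 called genes of 14, GPX1, TIGAR and SESN1. GPX1, a glutathione peroxidase, was among the most abundant genes to be called, at 425, 429 and 439 TPM in CON and 750.0, 680.5 and 732 TPM in DDP (0.74 ± 0.05). TIGAR, a phosphatase that lowers glycolytic flux, rose by 0.67 ± 0.07 and SESN1, a stress sensor acting on mTORC1, by 0.66 ± 0.09. Of 13 secreted and surface members 4 were called. GDF15, a secreted stress cytokine, was at 112, 111 and 110.1 TPM and 209, 195 and 199.6 TPM (0.85 ± 0.05, adjusted p = 1.9e-06), with very little spread in CON.

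Among the remaining members, 10 of 30 were called. CYFIP2, a subunit of the WAVE actin complex, was at 23.03, 23.2 and 26.7 TPM and 47.1, 52.9 and 60.98 TPM (1.11 ± 0.09). SPATA18, a mitochondrial quality control protein, PGF, a placental growth factor, and TP53TG1, a long non-coding RNA, rose from low levels by 0.98, 0.84 and 0.81. The list's other 28 tested members had no adjusted p under 0.05, and 6 of all 103 had a log2 fold change under 0. CCNG2, an atypical cyclin, had the lowest at -0.28 ± 0.11 (adjusted p = 0.14), and PERP and BTG1 lay near 0 (-0.02 and -0.03).

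**Figure D2:**
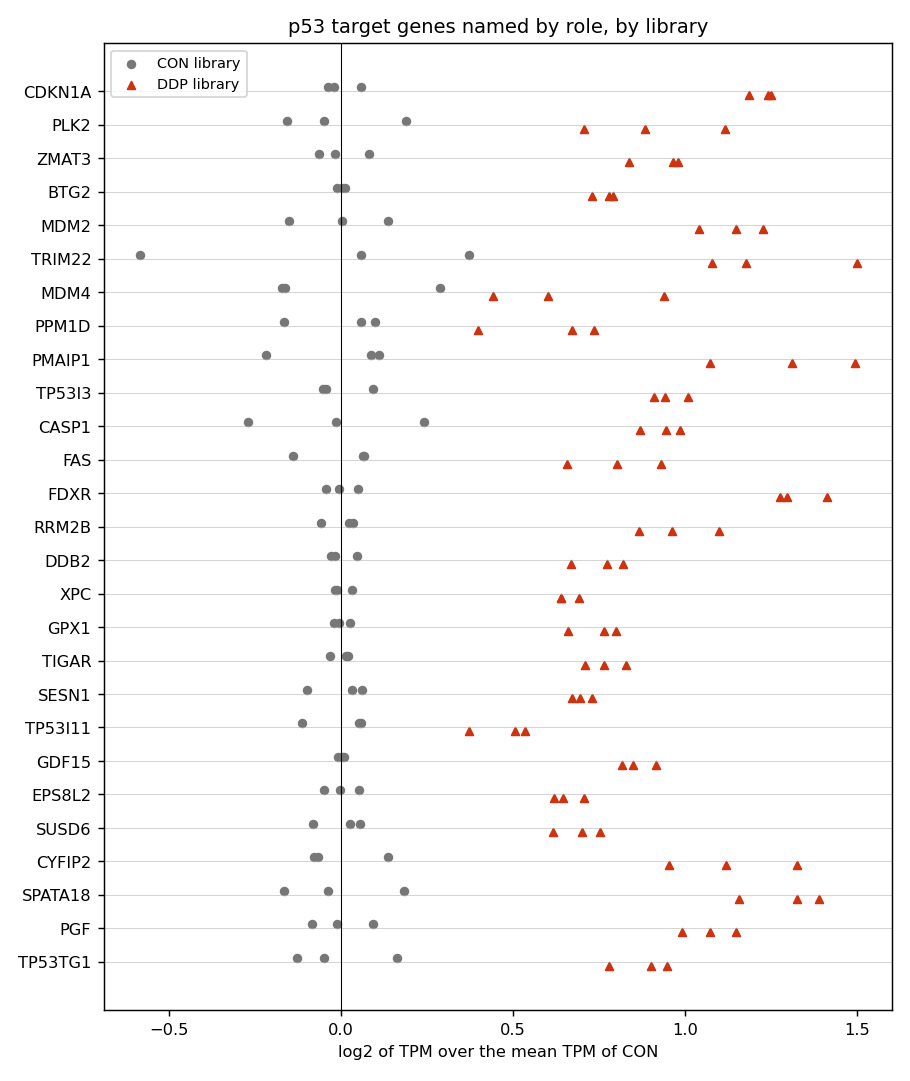
Each row is a p53 target gene and each symbol a library, grey circles for CON and red triangles for DDP (3 each), on a horizontal axis of log2(TPM over the mean TPM of CON). In every row the 3 triangles stand to the right of the 3 circles, by the least margin in MDM4 and by the widest in FDXR and CDKN1A.

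Sequence before the start sites was searched for the p53 response element, since members of the p53 list rose together. RefSeq start windows of 300 bases (250 before and 50 after the start, GRCh38.p14) were matched by symbol for 10076 of the genes tested. A match was a pair of 10-base blocks of the published p53 consensus, 0 to 13 bases apart, with at most 2 mismatches outside the required C and G of each core, on either strand. Such a match stood in a window of 3.44% of all genes matched, of 9.52% of the 168 genes called higher that had a window, of 0% of the 16 called lower and of 12.2% of the 82 p53 target genes with a window. With 0 mismatches only 5 genes of the 10076 had a match, and 4 of them, DDB2, LNCTAM34A, PURPL and MCC, had adjusted p under 0.05 and were higher. The fifth, DYNC2H1, a motor subunit of cilia, changed by 0.16 and did not pass. For comparison, among the genes called higher the TATA box TATAAA was in the window of 8.93% (7.82% of all matched), the CCAAT box CCAAT in 43.5% (42.9%) and the E2F sites TTTCGCGC or TTTGGCGC in 1.79% (2.63%), each on either strand. A match is a description of the letters and no evidence of binding in these cells.

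The elements of all 5 genes with perfect matches, and of p53 target genes and 3 other genes called with 2 mismatches, are printed to show the block that these genes share. Matches of other genes called higher, among them MR1 (1 mismatch), DNAH5, EFCAB10 and METTL8 (2 mismatches each), are not printed. They are written 5′ to 3′ on the strand of the gene, and capitals mark the 4-base core of each block.
DDB2 (chr11:47214979-47214999, 0 mismatches): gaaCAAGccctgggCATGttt
LNCTAM34A (chr1:9182144-9182163, 0 mismatches): gaaCAAGcccaggCAAGccc
PURPL (chr5:27472165-27472184, 0 mismatches): gggCTTGtctgggCATGccc
MCC (chr5:113488495-113488521, minus strand, 0 mismatches): gggCATGctccgttgtcaggCAAGttc
DYNC2H1 (chr11:103109250-103109281, 0 mismatches): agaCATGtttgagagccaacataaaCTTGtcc
MDM2 (chr12:68808923-68808942, 2 mismatches): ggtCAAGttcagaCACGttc
FAS (chr10:88991309-88991328, 2 mismatches): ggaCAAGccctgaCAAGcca
ACTA2 (chr10:88991309-88991328, minus strand, 2 mismatches): tggCTTGtcagggCTTGtcc
AEN (chr15:88621306-88621325, 2 mismatches): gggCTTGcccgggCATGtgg
FDXR (chr17:74872996-74873025, minus strand, 2 mismatches): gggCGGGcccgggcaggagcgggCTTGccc
EPS8L2 (chr11:720502-720524, 2 mismatches): gggCCTGtgctccaggCTTGtcc
GPX1 (chr3:49358521-49358540, minus strand, 2 mismatches): gggCCAGaccagaCATGcct
KRT8 (chr12:52926585-52926605, minus strand, 2 mismatches): agaCATGcccacagCAAGtgt
HSPA4L (chr4:127783509-127783528, 2 mismatches): aaaCATGtttccaCATGttc

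FAS and ACTA2 start back to back, and the same 20 bases serve as the match of both, read from opposite strands. ACTA2, smooth muscle actin, was at 27.2, 28.8 and 31.8 TPM in CON and 55.05, 51.2 and 56.5 TPM in DDP (0.87 ± 0.09). Whether reads were counted by strand was not given in the sources used here, so overlapping reads of such a pair cannot be told apart. LNCTAM34A, MCC and PURPL were named for their matches after the values were seen. PURPL, a p53-dependent long non-coding RNA, was at 8.19, 8.54 and 8.23 TPM and 11.2, 16.8 and 12.03 TPM (0.60 ± 0.17, adjusted p = 0.036), and DDP1 lay closest to CON. LNCTAM34A, a non-coding RNA beside the miR-34a gene, was low at 1.97, 1.48 and 2.53 TPM and 3.66, 3.58 and 3.15 TPM (0.59 ± 0.14). MCC was at 5.74, 5.09 and 6.27 TPM and 7.01, 9.16 and 7.42 TPM (0.40 ± 0.12), under the fold threshold. The 250 bases before the PURPL start (RefSeq, GRCh38.p14, chr5:27472042-27472291, plus strand) are printed as an example of a whole upstream region, with the p53 element in capitals.
PURPL upstream: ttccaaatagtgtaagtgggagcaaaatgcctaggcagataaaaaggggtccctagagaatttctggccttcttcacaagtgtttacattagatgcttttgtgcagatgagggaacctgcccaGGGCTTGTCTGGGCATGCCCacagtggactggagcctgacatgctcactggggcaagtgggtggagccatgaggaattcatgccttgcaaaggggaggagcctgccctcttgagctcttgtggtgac

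Arrest and death genes had also been chosen for RT-qPCR in the study. In the RNA-seq libraries 4 of these 7 genes were called and 5 had adjusted p under 0.05. Besides CDKN1A, MDM2, PMAIP1 and GADD45A, the pore-forming death effector BAK1 was at 21.9, 22.3 and 24.01 TPM in CON and 32.8, 29.5 and 32.5 TPM in DDP (0.46 ± 0.05, adjusted p = 2.0e-04).

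The largest rise among genes of at least 10 TPM was not that of a p53 target in the list. DKK1, a secreted Wnt antagonist (GRCh38 chr10:52314296-52318042), was at 11.3, 10.8 and 10.97 TPM in CON and 28.4, 30.97 and 31.4 TPM in DDP (log2 fold change 1.38 ± 0.06, adjusted p = 1.1e-07). Every DDP library was more than 2-fold above the highest CON library. CD70, a TNF family ligand, was at 23.9, 23.5 and 26.7 TPM and 58.05, 52.2 and 51.8 TPM (1.10 ± 0.06). CD82, a membrane tetraspanin known as a metastasis suppressor, was at 11.4, 13.3 and 13.9 TPM and 30.6, 28.5 and 25.4 TPM (1.07 ± 0.10). DGKA, a diacylglycerol kinase, was at 11.4, 10.9 and 11.9 TPM and 22.3, 23.4 and 29.7 TPM (1.06 ± 0.12), with DDP3 the highest. The groups stood apart in these 3 surface and signalling genes. PHLDA2, an imprinted pleckstrin homology protein, was at 20.1, 19.7 and 18.5 TPM and 39.5, 38.6 and 42.7 TPM (1.01 ± 0.08). FOSL1, an AP-1 subunit, was at 21.9, 21.4 and 23.8 TPM and 47.5, 39.9 and 49.4 TPM (0.99 ± 0.07). GALNT18, a mucin-type glycosyltransferase, was at 7.08, 6.7 and 7.75 TPM and 14.99, 15 and 13.9 TPM (0.94 ± 0.10). Again no DDP value fell into the CON range in these 3 genes. PMS2P14, a pseudogene with near-identical copies of PMS2 in the genome, was called at 1.05 ± 0.30, an uncertain value that missed adjusted p under 0.05 with quantile normalization and without CON1, CON2, DDP1 or DDP2 (up to 0.14).

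Of 27 tested genes of the Wnt list 2 were called higher, DKK1 among them, against 1.86% of all genes tested. By adjusted p 5 were higher and 1 was lower, against 10.0% and 2.17% of all genes. The median of the list was 0.03, and that of all genes 0.06. NKD2, an inhibitor of Dishevelled, was the other called member, at 5.37 ± 1.07 TPM in CON and 11.3 ± 0.594 TPM in DDP (0.96 ± 0.13). WNT7B, a ligand, changed by 0.51 ± 0.09, and FZD7, a receptor, fell by 0.34 on the log2 scale (adjusted p = 0.046).

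NF-kB and inflammatory genes had a median of 0.29 (0.24 under quantile normalization). Of 20 tested members 5 were called higher and 12 had adjusted p under 0.05, all higher. The shares of all genes tested were 1.86% and 10.0%. TRAF1, an adaptor of TNF receptors, rose from 1.703 to 4.84 TPM (1.11 ± 0.08). BIRC3, an inhibitor of apoptosis that TNF signalling induces, was at 8.08, 8.84 and 10.9 TPM in CON and 17.9, 21.7 and 17.5 TPM in DDP (0.97 ± 0.17). IL6 and CCL2, secreted inflammatory mediators, were at 27.2 ± 2.84 and 119.5 ± 4.403 TPM in CON and at 47.99 ± 0.597 and 194 ± 11.4 TPM in DDP. IL6 rose by 0.80 ± 0.09, CCL2 by 0.69 ± 0.07 and IL32, a cytokine of immune and epithelial cells, by 0.74 ± 0.05. The inhibitor NFKBIA changed by only 0.22 ± 0.04, and its adjusted p was not under 0.05 in all 3 scalings. The leukocyte marker CD68 rose in the same libraries (0.67 ± 0.08), while PTPRC, which all leukocytes express, was at 0.01 TPM or lower in each of the 6 libraries.

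Interferon-stimulated genes had a median of 0.24 (0.18 under quantile normalization), with 5 of 34 called (2 under quantile normalization) and 15 at adjusted p under 0.05 (12 in all 3 scalings), all higher. Among all genes tested 1.86% were called higher and 10.0% were higher by adjusted p (5.13% in all 3 scalings). OAS1 and IFI44 were near the limit of the filter, at 0.763 and 0.773 TPM in CON and 2.09 and 2.14 TPM in DDP. ISG15, a ubiquitin-like modifier, was better measured, at 37.99, 43.8 and 42.9 TPM and 69.2, 63.8 and 61.03 TPM (0.63 ± 0.10, adjusted p = 0.0018). TAP1, the peptide transporter of antigen presentation, was at 39.6, 37.03 and 41.2 TPM and 62.9, 59.1 and 59.1 TPM (0.61 ± 0.06), and no library of DDP lay within the CON range for either gene. Both kept adjusted p under 0.05 but dropped under the fold threshold with quantile normalization (0.57 and 0.55) and TMM-style scaling (0.55 and 0.53). The immunoproteasome subunits PSMB9 and PSMB8 rose by less, 0.56 ± 0.07 and 0.41 ± 0.04, while 2 of the 34 proteasome genes had adjusted p under 0.05, PSME2 and PSMA6 (0.36 and 0.20).

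The BCL2 family did not move as a block. Of 14 tested members 3 were called higher, PMAIP1, BCL2L1 and, from 0.967 TPM and not at adjusted p under 0.05 in all 3 scalings, BIK, and BCL2L11 was lower by adjusted p. BCL2L1, which encodes the survival protein BCL-XL, was at 57.1, 56.6 and 57.1 TPM in CON and 97.2, 86.8 and 93.97 TPM in DDP (0.69 ± 0.05, adjusted p = 4.9e-06). BCL2L11, which encodes the death-promoting BIM, was at 15.8, 16.3 and 18.7 TPM and 11.98, 12.9 and 12.2 TPM (-0.42 ± 0.09, adjusted p = 0.0076). A survival gene thus rose and a BH3-only gene fell alongside the rises of PMAIP1, BBC3 and BAX. Of 10 genes on the caspase list, which does not hold CASP1, 0 were called and 2 had adjusted p under 0.05, among them CASP4 (0.53). Among all genes tested 1.86% were called higher and 10.0% were higher by adjusted p.

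Outside the p53 targets, DNA repair and checkpoint genes shifted little. The shares of all genes tested were 1.86% called higher and 10.0% higher by adjusted p. Of 23 checkpoint kinases and mediators 0 were called, and CLSPN, BRCA1 and RAD1 had adjusted p under 0.05 (0.52, 0.46 and 0.22). In nucleotide excision repair DDB2 and XPC were the only called members of 29, and the list's median, 0.06, equalled that of all genes. Crosslink repair and recombination genes had a median of 0.19 (0.10 under quantile normalization), with 0 of 32 called and 5 of the 15 recombination genes higher by adjusted p, among them RBBP8, which starts end resection (0.48 ± 0.13). None of the 17 Fanconi genes and none of the 7 mismatch repair genes had adjusted p under 0.05. In translesion synthesis POLH was the called member of 14, a call lost to the fold threshold under quantile normalization.

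Few cell cycle genes were called. By adjusted p 10.0% of all genes tested were higher and 2.17% lower (5.13% and 2.11% in all 3 scalings). Of 45 mitosis genes 0 were called, 5 were higher by adjusted p, and 0 had adjusted p under 0.05 with quantile normalization, where their median was 0.03. Of 45 DNA replication genes 9 were higher by adjusted p, led by PCNA, the sliding clamp and a p53 target itself (0.48 ± 0.05, 235 ± 13.2 to 328 ± 12.2 TPM), POLA2, CDC6 and MCM10 (0.47, 0.45 and 0.45), and POLD2 was lower (-0.22). Of 22 genes on the G1 list, 7 were higher and 2 lower by adjusted p (6 and 2 in all 3 scalings). In G1, CCNE2 was called (0.63 ± 0.15, 2.51 to 4.45 TPM), a call lost to the fold threshold under both other scalings and to adjusted p without CON2, CON3 or DDP2 (up to 0.066). RB1 and CCNE1 were higher by adjusted p (0.57 and 0.53), and CDKN1B, the inhibitor p27, was lower (-0.28 ± 0.07). Of 18 histone genes 1 was higher and 3 were lower by adjusted p, in each of the 3 scalings. H2BC12, a core histone gene of the replication-dependent kind, rose by 0.44 ± 0.06 (adjusted p = 5.6e-04), and the 9 genes of that kind had a median of 0.35. The libraries were oligo(dT)-selected, so histone transcripts without a poly(A) tail were not properly measured. The linker histone gene H1-10 went from 81.5, 73.6 and 75.2 TPM to 52.5, 47.2 and 52.95 TPM (-0.58 ± 0.07, adjusted p = 3.0e-04), and the variant histone gene H3-3A changed by -0.21 ± 0.06.

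**Figure D3:**
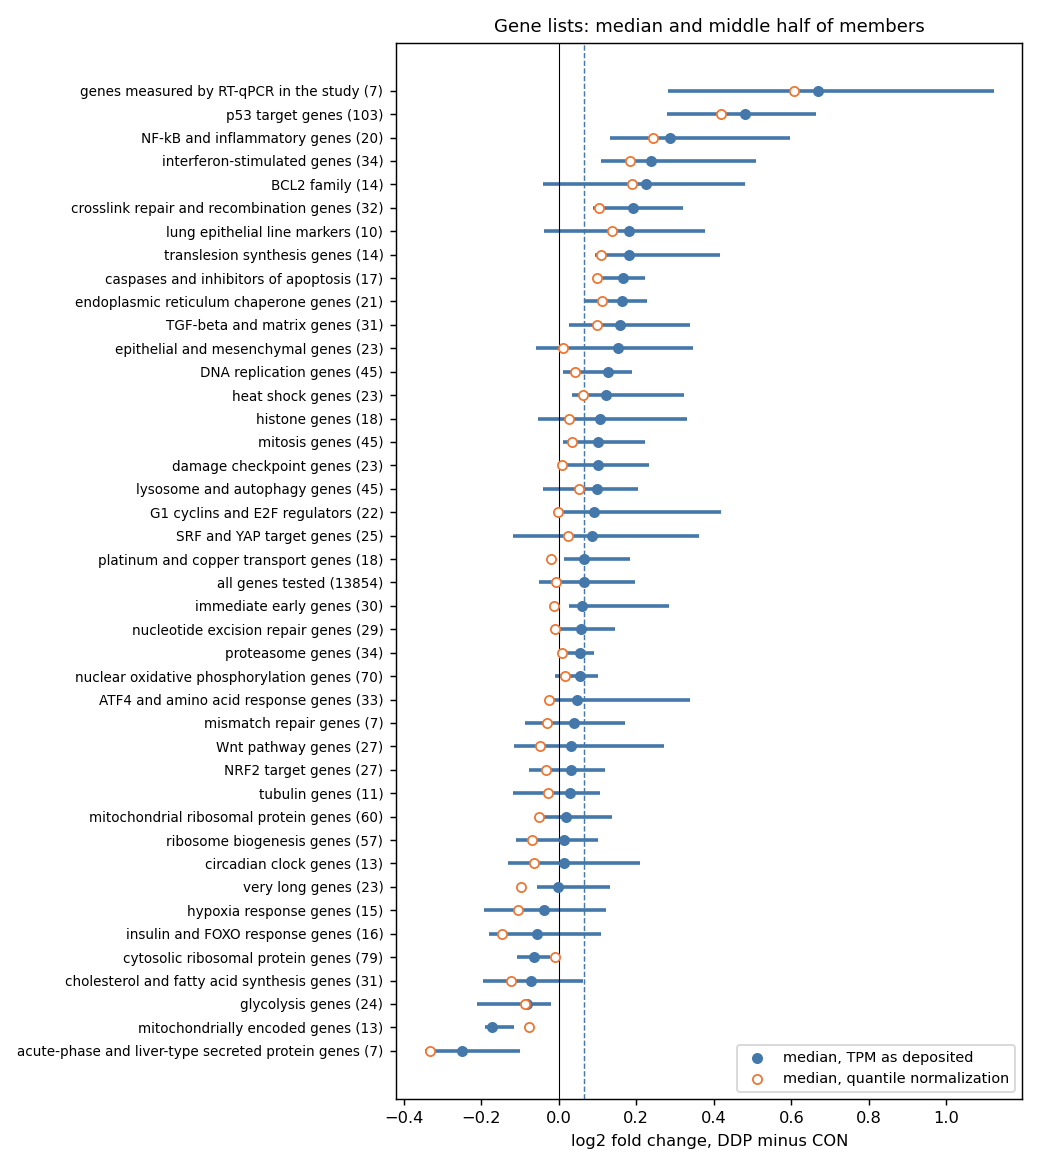
Each row is a gene list with its number of tested members in brackets (lists of at least 7), on a horizontal axis of log2 fold change, DDP minus CON. Filled points are list medians with TPM as deposited, lines span the middle 50% of members, open points are medians after quantile normalization, and the dashed line is the median of all genes, 0.06. Apart from the 7 RT-qPCR genes, the p53 targets lie farthest to the right.

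Stress pathways other than p53 were mixed. ATF4 targets and amino acid response genes, 33 in all, had 9 members higher and 6 lower by adjusted p, with a median of 0.05. Of all genes tested 10.0% were higher and 2.17% lower by this rule. In all 3 scalings 8 members were higher and 6 lower, against 5.13% and 2.11% of all genes. CHAC1, a glutathione-degrading enzyme, was at 2.85, 3.78 and 2.88 TPM in CON and 10.8, 9.29 and 12.7 TPM in DDP (1.51 ± 0.18, adjusted p = 2.0e-04), and DDIT3 (CHOP) rose by 0.64 ± 0.08. In the same list CEBPB, a partner of ATF4, was at 207, 163 and 169.9 TPM and 131, 122 and 115 TPM (-0.54 ± 0.12), and PHGDH, the first enzyme of serine synthesis, was at 96.2, 98.1 and 106 TPM and 71.8, 72.3 and 76.7 TPM (-0.44 ± 0.05). These 2 falls had no overlap between the groups, and the list therefore ran in both directions.

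Of 23 heat shock genes 8 were higher by adjusted p (5 in all 3 scalings) and 0 lower, against 10.0% higher of all genes (5.13% in all 3). HSPA4L, an HSP110 family chaperone, was called at 9.14, 9.62 and 8.01 TPM in CON and 16.3, 19.5 and 16.6 TPM in DDP (0.89 ± 0.10), HSPB8 rose by 0.55 ± 0.08 and HSPH1 by 0.44 ± 0.09. Among 21 endoplasmic reticulum chaperone genes DNAJB9 was called (0.64 ± 0.14) and SDF2L1 was higher by 0.34 ± 0.06. The call of DNAJB9 was lost under quantile normalization and without CON3 or DDP1 (adjusted p up to 0.056). NRF2 targets had 5 higher and 4 lower of 27 by adjusted p, a balance that turned to 2 higher and 7 lower under TMM-style scaling. AKR1B10 was called at 0.71 ± 0.10 and AKR1B1, an abundant aldose reductase, was higher by 0.52 ± 0.04, whereas PGD of the pentose phosphate pathway was lower at -0.31 ± 0.04. Of 3 tested metallothionein and zinc genes SLC30A1, a zinc exporter, and MT2A were higher (0.52 and 0.31). Platinum and copper transport genes held 0 called of 18, with GSTP1 at 0.18, the chaperone COX17 at 0.30 and the exporter ABCC3 at -0.21.

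AP-1, SRF and matrix genes rose in part. Of all genes tested 1.86% were called higher, and by adjusted p 10.0% were higher and 2.17% lower. Of 30 immediate early genes 10 were higher and 2 lower by adjusted p (7 and 2 in all 3 scalings). FOSL1 and CCN2 were called, and JUNB and MYC were lower by adjusted p (-0.25 ± 0.05 and -0.23 ± 0.05). CCN2, a matricellular growth factor and YAP target, was at 11.2, 10.4 and 11.1 TPM in CON and 18.6, 18.4 and 18.5 TPM in DDP (0.71 ± 0.06). In the SRF and YAP list, which also holds CCN2, 8 of 25 were higher and 3 lower by adjusted p (6 and 2 in all 3 scalings). ACTA2 and CCN2 were called there, while the cytoskeletal genes TPM4 and VCL were lower (-0.25 and -0.24). Of 31 TGF-beta and matrix genes 10 were higher by adjusted p and 0 lower, 6 of them in all 3 scalings, against 10.0% and 5.13% of all genes. Those called, 2 with TPM as deposited and 1 under quantile normalization, included SERPINE2 (0.64). KRT8, a keratin of simple epithelia, rose from 488, 487 and 507 TPM to 819.7, 721 and 789.7 TPM (0.65 ± 0.05) and its partner KRT18 by 0.44 ± 0.06. The mesenchymal regulator ZEB2 was called from a low level (1.3 to 2.49 TPM). This call was lost to the fold threshold under quantile normalization and without CON2, CON3, DDP1 or DDP2. Of 45 lysosome and autophagy genes CD68 was called and SQSTM1, the autophagy receptor p62, was higher by 0.32 ± 0.04.

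Calls of lower genes were fewer. ALDOC, the brain-type aldolase of glycolysis (GRCh38 chr17:28573115-28577264), was at 20.3, 20.8 and 21.2 TPM in CON and 10.9, 11.3 and 11.1 TPM in DDP (-0.85 ± 0.07, adjusted p = 1.4e-05). SAMD11, a sterile alpha motif protein, was at 17.6, 15.7 and 17.1 TPM and 8.13, 7.5 and 8.85 TPM (-0.96 ± 0.11). SLC29A4, a monoamine transporter, was at 29.1, 26.8 and 25.4 TPM and 16.6, 15.02 and 16.99 TPM (-0.71 ± 0.11), and no DDP library reached the CON range in these 3 genes. DNM1, the dynamin of endocytosis, was at 92.2, 107 and 122 TPM and 65.6, 64.3 and 71.8 TPM (-0.65 ± 0.09). SNHG7, a snoRNA host gene, was at 172, 159 and 160.0 TPM and 111, 106 and 104 TPM (-0.61 ± 0.06). The CON libraries of DNM1 were spread, and all DDP values lay beneath them. HEBP2, a haem-binding protein, was at 22.4, 16.6 and 13.04 TPM and 11.2, 8.4 and 6.73 TPM (-0.90 ± 0.24, adjusted p = 0.037), and MUC1, a membrane mucin, at 35.1, 33.9 and 28.1 TPM and 24.5, 15.8 and 17.04 TPM (-0.75 ± 0.15, adjusted p = 0.0063). Both had a spread that left a narrow gap between the groups. Leaving out CON1, CON2, DDP2 or DDP3 took the adjusted p of HEBP2 over 0.05 (up to 0.12, with a log2 fold change of -1.08 to -0.71 over the 6 omissions). TMEM80 and PCOLCE, a procollagen enhancer, completed the list at -0.64 and -0.66. The adjusted p of TMEM80 passed 0.05 without CON2 or DDP1 (up to 0.063), and that of PCOLCE without CON2, CON3, DDP1 or DDP2 (up to 0.092). Without CON3 the change of DNM1 was -0.56, and without CON1 that of SNHG7 was -0.58, both under the fold threshold. RNVU1-8, a variant U1 small nuclear RNA, was at 21.3, 23.99 and 25.7 TPM in CON and was listed at 0 in each DDP library. This gene has near-identical copies among which reads can be assigned one way or another, so its value is uncertain, and no single library could be left out with its call kept (adjusted p of 0.096 to 0.10).

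**Figure D4:**
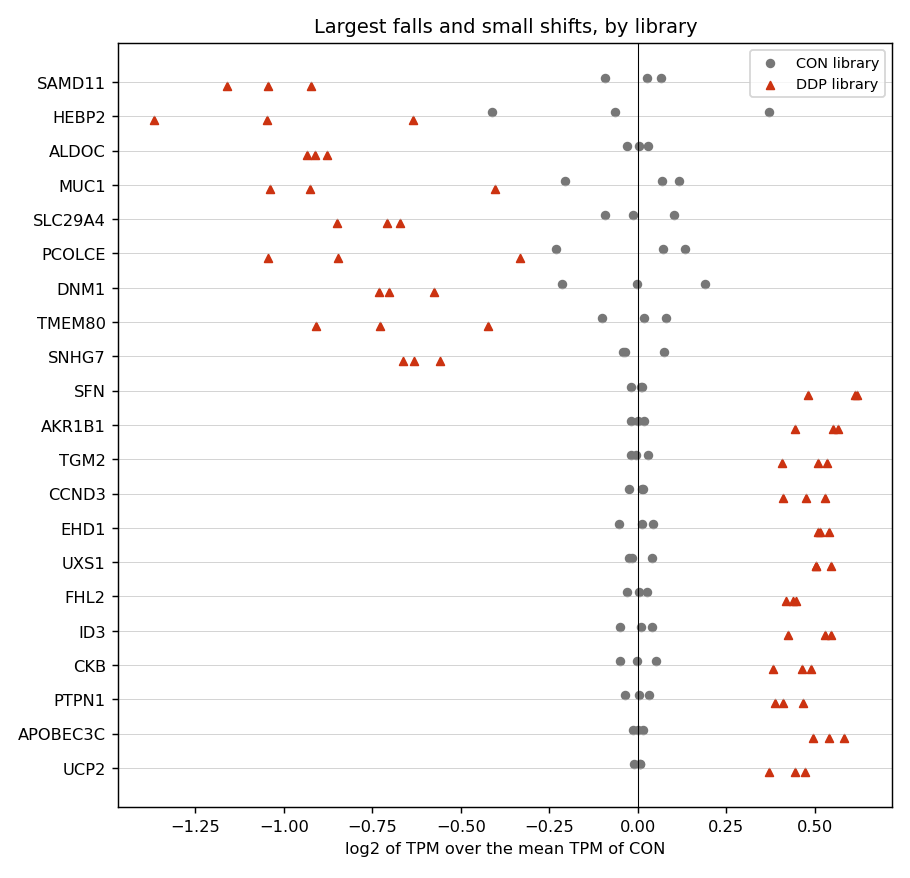
Each row is a gene, first the 9 largest falls with a value above 0 in DDP, then the 12 small shifts, and each symbol is a library (grey circles CON, red triangles DDP, 3 each) on an axis of log2(TPM over the mean TPM of CON). The triangles lie left of the circles in all the falls, with visible spread in HEBP2, MUC1 and PCOLCE, and right of them in all the small shifts, with tight groups.

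Small falls by adjusted p were found among genes of glycolysis, lipid synthesis and ribosome synthesis. Of all genes tested, 2.17% were lower and 10.0% higher by adjusted p with TPM as deposited. Under quantile normalization these shares were 5.10% and 6.29%, so falls were more frequent there in general. Of 24 glycolysis genes 4 were lower and 2 higher by adjusted p, with a median of -0.08 (-0.09 under quantile normalization). Besides ALDOC, the glucose transporter SLC2A3 was at 18.8, 19.9 and 19.4 TPM in CON and 13.3, 13.1 and 13.4 TPM in DDP (-0.51 ± 0.09), GPI fell by 0.25 and LDHA, at 1933 ± 57.2 TPM in CON, by 0.20 on the log2 scale. Of 31 cholesterol and fatty acid synthesis genes 6 were lower (10 under quantile normalization) and 1 was higher. SCD, the stearoyl-CoA desaturase, was at 246, 246 and 249 TPM and 186, 178 and 186 TPM (-0.43 ± 0.06, adjusted p = 5.6e-04), and DHCR7, the last enzyme of cholesterol synthesis, fell by 0.39 ± 0.06. TM7SF2, a sterol reductase of the same pathway, was called higher (0.68 ± 0.11). Of 57 ribosome biogenesis genes 4 were lower and 2 higher, and 11 lower and 0 higher under quantile normalization, among them NOB1 and the RNA polymerase I factor UBTF (-0.33 and -0.26).

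The position of other housekeeping groups depended on the scaling. Of 79 cytosolic ribosomal protein genes 0 were called and 3 were lower by adjusted p, at a median of -0.06. Under quantile normalization 2 were higher and 2 lower at a median of -0.01, and under TMM-style scaling 16 were lower and 0 higher at a median of -0.14. The 13 mitochondrially encoded protein genes had a median of -0.17 (-0.08 under quantile normalization and -0.25 under TMM-style scaling). Of these 11 were lower without overlap, against 8.89% of all genes tested, and none had adjusted p under 0.05. Mitochondrially encoded RNA made up 10.3% to 10.8% of all TPM in CON and 9.88% to 9.99% in DDP. A lower share of this RNA lowers these genes together, so the 11 are not separate observations. With 3 against 3 libraries the exact permutation test of that share, two-sided, cannot go below p = 0.1, and it was p = 0.1. Of 70 nuclear oxidative phosphorylation genes 6 were higher and 1 was lower by adjusted p, against 10.0% and 2.17% of all genes, while quantile normalization gave 4 and 3 and TMM-style scaling 0 and 2. ATP5F1D, the gene lower with TPM as deposited (-0.39 ± 0.11), lost adjusted p under 0.05 when any library but CON3 was left out (up to 0.13). Of 11 tubulin genes TUBA1A, TUBB and TUBB3 were lower (-0.37, -0.26 and -0.17), in all 3 scalings, and TUBG1 and TUBB6 were higher (0.28 and 0.19), though not under TMM-style scaling. The 13 circadian clock genes, the hypoxia genes apart from VEGFA (-0.25), and the 23 very long genes apart from FNDC3B (0.33) had no adjusted p under 0.05. In insulin and FOXO response genes FOXO3 and IGFBP4 were lower (-0.31 and -0.22) and IGFBP3 was higher (0.33, adjusted p = 0.047). The adjusted p of FOXO3 passed 0.05 when any library but CON3 was left out (up to 0.10), and that of IGFBP3 when any of the 6 was (up to 0.15). Among the acute-phase genes SERPINA3 was lower (-0.54 ± 0.12).

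Small shifts outnumbered the calls. By adjusted p under 0.05 alone, 1690 genes (12.2%) differed, 1389 higher (10.0%) and 301 lower (2.17%). Of these, 512 of the higher and 189 of the lower genes moved by at most 0.32 on the log2 scale, and another 620 and 90 by more than that but less than 1.5-fold. The 3 libraries of each group did not overlap in 1128 of the 1132 small rises and in 277 of the 279 small falls, against 25.7% higher and 8.89% lower of all genes, which the choice by adjusted p nearly fixes. The scaling decided many of the rises. The share of these genes that was higher was 82.2% with TPM as deposited, 55.2% with quantile normalization (871 higher, 707 lower) and 54.0% with TMM-style scaling (744 higher, 633 lower). Under all 3 scalings 481 of the small rises and 270 of the small falls kept adjusted p under 0.05 in the same direction, and of all genes tested 7.24% did (5.13% higher, 2.11% lower). Small falls were at abundant genes, with a median CON mean of 64.6 TPM against 23.7 TPM for small rises.

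The clearest small shifts, those of the smallest p among genes of at least 50 TPM, were 12 rises, and all 12 kept adjusted p under 0.05 in the 3 scalings. AKR1B1 was at 1135, 1150.5 and 1164 TPM in CON and 1683, 1562 and 1702 TPM in DDP (0.52 ± 0.04, adjusted p = 1.9e-05). TGM2, tissue transglutaminase, was at 209.7, 212 and 217 TPM and 308, 282 and 302 TPM (0.48 ± 0.04). CCND3, a G1 cyclin, was at 117, 120.0 and 120.4 TPM and 165, 158 and 172 TPM (0.47 ± 0.04). The gap between the groups was larger than the spread within them in these 3 genes. ID3, an inhibitor of helix-loop-helix factors, rose by 0.50 ± 0.05, FHL2, a LIM domain cofactor, by 0.43 ± 0.04, and APOBEC3C, a cytidine deaminase on the p53 list, by 0.53 ± 0.05. EHD1, an endocytic recycling protein, rose by 0.51 ± 0.05 and UXS1, which makes UDP-xylose, by 0.51 ± 0.05. SFN, described above, was the first of the 12 by p. The phosphatase PTPN1, creatine kinase B (CKB) and the mitochondrial carrier UCP2 rose by 0.42 ± 0.04, 0.44 ± 0.04 and 0.42 ± 0.04.

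The direction of small shifts varied with gene level and gene structure. The median log2 fold change was 0.09 in genes of 2 to 5 TPM, 0.05 at 20 to 100 TPM, 0.03 at 100 to 1000 TPM and -0.06 in the 150 genes above 1000 TPM, and under quantile normalization it was between -0.01 and 0 in each of these. The share lower by adjusted p was 0.553% at 2 to 5 TPM and 7.03% at 100 to 1000 TPM. Among protein-coding genes it fell with length, from 5.25% in genes under 5 kb to 0.854% in those over 200 kb, and from 10.4% to 3.66% under quantile normalization. Single-exon genes, 259 in all, were lower in 6.95% and higher in 5.41%, against 2.17% and 10.0% of all genes. Of 174 tested loci that the authors' assembly added outside the annotation, 18 were called higher (10.3%) and 0 lower. These loci have no names here.

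Many large fold changes were not called. A fold over 2 was found in 206 genes, and in 169 of them adjusted p was not under 0.05. In 147 of these at least 1 library was listed at 0, and they included 30 snoRNA, 28 snRNA and 10 rRNA genes, short RNAs with near-identical copies, while 0 of the 48 snoRNA and 53 snRNA genes tested with an annotated type were called.

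The same drug contrast was available in separate libraries, TRF + DDP against TRF, and is given for the called genes. In that medium 2258 genes were called (16.3%), 1413 higher (10.2%) and 845 lower (6.10%), and 57.2% of all genes had a log2 fold change over 0. Of the 257 genes called higher in DDP against CON, 221 (86.0%) were also higher there and 151 (58.8%) were called higher, with a median of 0.75 there and 0.72 in normal medium. Of the 22 called lower, 12 (54.5%, against 42.4% of all genes) were lower there, 3 were called lower, and the median was -0.03 there and -0.80 in normal medium. The medians of the rises were close in both media, though single rises differed, and that of the falls was near 0 in the other medium. The difference between the media had adjusted p under 0.05 in 135 of the 257 rises and 17 of the 22 falls (29.8% of all genes). These genes were chosen on the DDP minus CON change, which is 1 side of that difference, so a smaller change in the other medium is favoured by the choice. Nothing is therefore read from these counts or from the medians.

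**Figure D5:**
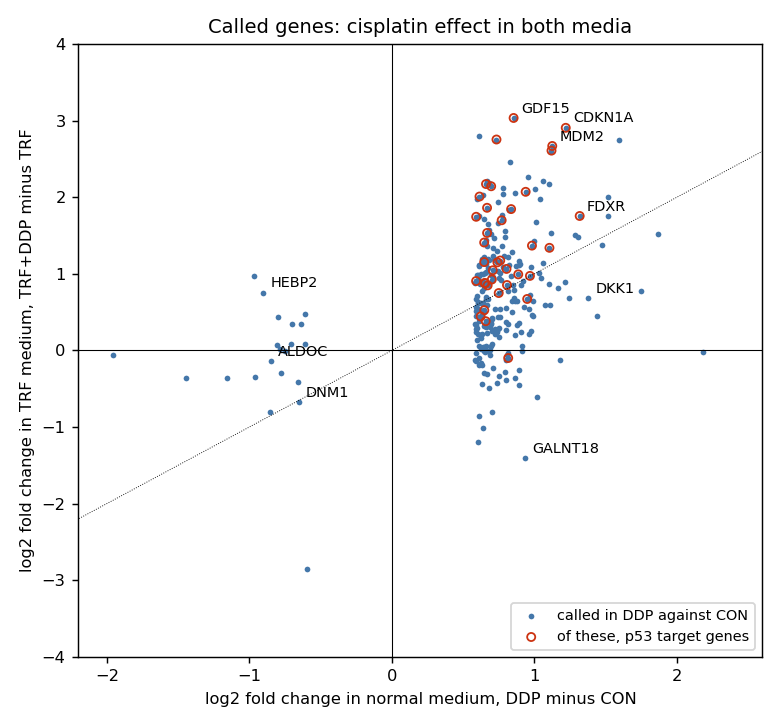
Each point is a gene called in DDP against CON, with its log2 fold change in normal medium on the horizontal axis and that of TRF + DDP against TRF on the vertical axis, open red circles marking p53 target genes. The dotted line is equality, 1 gene (RNVU1-8) lies outside the axes, and most p53 targets stand above the dotted line while the falls scatter around 0.

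Of the 37 called p53 targets 36 were higher in the other medium too, with a median of 1.17 there against 0.74 in normal medium, and in 23 the rise there was larger by the interaction test while in 1 it was smaller. CDKN1A was at 121, 129.7 and 126 TPM in TRF and 960.2, 929 and 949 TPM in TRF + DDP (2.91 ± 0.04). GDF15 was at 41.95, 47.3 and 47.7 TPM and 372, 393 and 377 TPM (3.03 ± 0.05). DKK1 was at 55.5, 62.9 and 56.9 TPM and 94.4, 92.5 and 95.03 TPM (0.68 ± 0.06), a rise smaller than in normal medium. ALDOC, at 12.8, 11.8 and 12.9 TPM and 12.2, 10.4 and 11.1 TPM, changed by -0.14 ± 0.07 in that medium (adjusted p = 0.11).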

How the data were processed

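The authors prepared oligo(dT)-selected libraries, used SeqPrep and sickle for trimming, HISAT2 for alignment and StringTie for assembly. The deposited values are TPM per gene. The quantifier, versions, genome build and strand setting were not given in the sources used here, and edgeR is named in the submitters' processing notes without a version. Depth is unknown, so no counting interval was computed. Symbols were matched on Ensembl ID, and 13590 tested genes had GENCODE v29 coordinates (GRCh38).

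Genes averaging 1 TPM or more across the 12 libraries were fitted as log2(TPM + 1) with limma 3.58.1 (trend, robust) in R 4.3.3, 1 mean for each of 4 groups, and the DDP minus CON contrast was tested. The 44 gene lists, the comparison and its named genes were chosen with earlier results of these data known. Named were the 15 largest rises and 10 largest falls among called genes with a symbol and at least 10 TPM, the 12 smallest p-values under a 1.5-fold change and at least 50 TPM, the 7 genes of the RT-qPCR list, up to 4 members a list (and per p53 role) with adjusted p under 0.05, and list members named for their role. A few genes chosen by these rules are not reported here, though the counts over lists include them. The fit was tested on simulated data of 13854 genes, where 48 of 50 genes changed by 0.8 (log2) and 28 of 50 changed by 0.4 reached adjusted p under 0.05. The changed genes were drawn only from those above a set CON level, so recovery of genes of low level was not tested. Noise was drawn from a normal distribution, and 5 unchanged genes also passed. Alternatives covered scaling, prior, filter, pseudocount, libraries in the fit, replicate block, fold test and each library left out. No column of another series was used.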

Additional observations from a re-analysis of the deposited data

Results flagged for a closer look

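The drug effect was compared between the media, (TRF + DDP minus TRF) minus (DDP minus CON), for 28 genes, the 25 largest rises and falls and the RT-qPCR genes reported here. In 21 of them the limma interaction had adjusted p under 0.05 (29.8% of all genes tested), 16 with a positive and 5 with a negative difference. The largest rises and falls were chosen on the DDP minus CON change, 1 side of this difference, which favours a change closer to 0 in the TRF medium, so the count is a description. The values are log2 differences between the media.

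Among p53 targets the rise was larger in the TRF medium for CDKN1A (1.69), MDM2 (1.54), PMAIP1 (1.49), GADD45A (1.19), RRM2B (1.13) and FDXR (0.44), with adjusted p of 7.7e-09, 7.9e-05, 1.4e-04, 2.8e-06, 1.4e-04 and 0.0015. TP53I3 rose less there (-0.28, adjusted p = 0.01). BAK1 (0.43), an effector of apoptosis, had a larger contrast in that medium.

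Among the other rises, DGKA (1.15) and PHLDA2 (0.66) rose more in the TRF medium, and DKK1 (-0.70), CD82 (-0.48) and FOSL1 (-0.54) rose less. GALNT18 had the largest difference (-2.35, adjusted p = 8.0e-07), being -1.41 there and 0.94 in normal medium. Its TPM were 8.82, 9.27 and 9.41 in TRF and 3.27, 2.31 and 2.95 in TRF + DDP.

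Among the falls, where the choice alone favours this direction, the contrast was closer to 0 or above it in the TRF medium for SAMD11 (0.62), ALDOC (0.71), MUC1 (0.74), SLC29A4 (0.79), TMEM80 (0.99) and SNHG7 (0.69). HEBP2 (1.66, adjusted p = 0.0048) was -0.90 in normal medium and 0.75 there.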

How the results depend on the processing

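The counts of genes called (279 in all, 257 higher, 22 lower) and of genes with adjusted p under 0.05 (1690, 1389 higher, 301 lower) moved with scaling. Quantile normalization gave 169 higher and 46 lower calls, and 871 and 707 by adjusted p, while TMM-style scaling gave 169 and 37, and 744 and 633. The called p53 targets numbered 31 under quantile normalization and 25 under TMM-style scaling. In all 3 scalings, a choice added after seeing the data, 180 genes were called (158 higher) and 1003 had adjusted p under 0.05 (711 higher). Without the filter 1048 genes had adjusted p under 0.05 (874 higher, 174 lower), and with at least 1 TPM in every library 13 falls were called. A limma test against a 1.5-fold change left 11 calls, 11 higher and 0 lower, with 3 p53 targets in place of 37. Leaving out each library in turn gave 252 to 291 calls (225 to 268 higher, 17 to 27 lower), 995 to 1201 genes by adjusted p (841 to 1003 higher, 154 to 203 lower) and 33 to 39 called p53 targets. The number by adjusted p was 995 without CON1, 1023 without CON2 and 1095 without DDP3, fits with fewer libraries.

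Same-numbered CON and DDP libraries had correlations of their deviations of -0.0046, 0.0443 and 0.0286, so they share only a number. With the replicate number as a block, 251 higher and 23 lower genes were called, and 1349 and 287 had adjusted p under 0.05.

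Of 170 named genes, 101 kept their direction and their side of the threshold in every setting other than the 1.5-fold test, 69 lost adjusted p under 0.05 or the fold in at least 1, and 0 reversed. Leaving out at least 1 library had this effect in 54, and for 12 any of the 6 libraries did: ABCC3, ANLN, CASP1, ECT2, IGFBP3, LEF1, NEU1, POLQ, RAD1, RNVU1-8, RPL4 and TOP2A. Depth is unknown, so low genes have no counting limits here, 3 libraries per group bound the precision, and prior exposure of CON cells to cisplatin was not tested.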

Other observations

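Of the 257 genes called higher, 192 were in none of the 44 lists, and of the 22 called lower 20 were in none. The genes below were chosen after their values were seen. Several rose from a low level, where a few reads can weigh heavily. SAA1, an acute-phase apolipoprotein, was at 0.3, 1.85 and 0.63 TPM in CON and 7.32, 2.88 and 6.04 TPM in DDP. RGMA, a guidance molecule and BMP coreceptor, was at 1.68, 1.03 and 1.54 TPM and 6.48, 5.99 and 6.31 TPM, and EBI3, an interleukin subunit, at 1.72, 2.23 and 1.56 TPM and 7.5, 6.73 and 6.3 TPM. In these 3 genes the groups did not overlap, and the adjusted p-values from limma were 0.01, 5.7e-06 and 1.1e-05.

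Some abundant genes outside the lists were called as well. TFPI2, a secreted protease inhibitor, was at 44.1, 49.6 and 43.01 TPM in CON and 87.4, 86.3 and 84.5 TPM in DDP (0.91 ± 0.07). C15orf48, a mitochondrial micropeptide gene, was at 115, 124 and 108 TPM and 202, 187 and 194 TPM (0.74 ± 0.06), and ISCU, the iron-sulphur cluster scaffold, at 104, 102 and 93.7 TPM and 147, 163 and 159 TPM (0.64 ± 0.06). SULF2, an extracellular heparan sulphatase, was at 63.05, 64.5 and 67.05 TPM and 113, 113 and 111 TPM (0.78 ± 0.07). Their DDP values all lay above their CON values. Among the falls, SNHG3, a second snoRNA host gene besides SNHG7, was at 21.1, 19.3 and 19.5 TPM and 12.8, 11.6 and 14 TPM (-0.61 ± 0.08), and MIR210HG, the host of a hypoxia-induced miRNA, at 5.52, 6.92 and 8.51 TPM and 3.18, 5.42 and 2.1 TPM (-0.85 ± 0.22).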
